A study of Mus musculus with 8 samples.

Results

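Elongator is a protein complex that starts the modification of the wobble uridine, the first base of the anticodon, in a set of tRNAs. The genes described here are *Elp4*, *Elp5* and *Elp6*, which encode the accessory sub-complex of Elongator, and *Kti12* and *Dph3*, which encode proteins that act with it. They were chosen by name, as the rows of the deposited expression values that carry one of these 5 symbols, and they are 5 of the 10982 gene symbols (10987 transcripts) listed. Each symbol had a single transcript. The other subunits of the complex were not analysed here.

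The libraries came from oligodendrocyte progenitor cells (OPCs) of mouse strain 129S/SvEv, made from epiblast stem cells, and from oligodendrocytes (OLs) differentiated from them in vitro. OPCs were grown with bFGF and PDGFA, each at 20 ng/mL. For OLs, bFGF was first withdrawn, and the cells were then differentiated in a medium with noggin at 100 ng/mL, IGF-1 at 100 ng/mL, cyclic AMP at 10 µM, NT3 at 10 ng/mL and thyroid hormone T3 at 40 ng/mL. Both cell types were 2 replicate cultures, without a genetic change, and from each culture ribosome footprints (fragments of mRNA that ribosomes protect from nuclease) and fragmented total RNA were sequenced, which gives 8 libraries. The progenitors were derived in culture, not taken from brain, and plates of the same cell type were pooled in a lysate.

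Elongator places a carboxymethyl-type group on the wobble uridine, and later enzymes complete the modification. The finished base is known in the tRNAs that read AAA and GAA, CAA and AGA codons, where it favours pairing with a final A. In the complex, the products of *Elp4*, *Elp5* and *Elp6* form a ring that binds tRNA and acts as an accessory to the catalytic lobes. *Kti12* encodes a nucleotide-binding protein that associates with Elongator and with tRNA, and *Dph3* encodes a small zinc and iron protein that serves both Elongator and the synthesis of diphthamide, a modified histidine of elongation factor eEF2.

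The coding sequences (CDS) of the 5 genes are themselves read in part through the codons that Elongator serves. To show how these codons lie, the stretch of 10 codons with most AAA, GAA, CAA and AGA codons is given below for each gene. Where stretches tied, the earliest in the CDS was taken. Sequences run 5′ to 3′, with the AAA, GAA, CAA and AGA codons in capitals, and are from the Gencode vM21 transcripts of GRCm38. *Elp4* lies on chromosome 2 (105701027 to 105904564, minus strand, 10 exons), and codons 118 to 127 of its 422 codons span an exon junction between 105842358 and 105865985. *Elp5* lies on chromosome 11 (69968224 to 69981252, minus strand, 9 exons), and codons 241 to 250 of 300 are exonic at 69969134 to 69969163. *Elp6* lies on chromosome 9 (110305173 to 110321323, plus strand, 7 exons), and codons 39 to 48 of 266 span an exon junction between 110310155 and 110312579. *Kti12* is a gene of 1 exon on chromosome 4 (108847785 to 108849413, plus strand), and codons 167 to 176 of 351 are at 108848389 to 108848418. *Dph3* lies on chromosome 14 (32080566 to 32085609, minus strand, 4 exons), and codons 34 to 43 of 82 span an exon junction between 32084961 and 32085418.
Elp4: AAAGAAaatcctgccAAAattttacagGAA
Elp5: cacttatccaagAAAGAAAGAGAAgccAGA
Elp6: ctttccttctacctgAAAgctaattgtAAA
Kti12: gctgtctcaaagGAActggatccagagGAA
Dph3: atcaccaagGAAgatttgGAAaatggaGAA

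The members differed in how often they use these codons. Among the Lys, Glu and Gln codons and the AGA and AGG codons of each CDS, the A-ending share was 54.0% in *Elp5* (27 A-ending and 23 G-ending), 47.1% in *Dph3* (8 and 9) and 44.0% in *Elp4* (33 and 42). It was 25% in *Elp6* (11 and 33) and 18.5% in *Kti12* (10 and 44). The median over 10973 transcripts was 35.3%, so *Elp5*, *Dph3* and *Elp4* lay above it, at percentiles 88.6, 76 and 69.5, and *Elp6* and *Kti12* below it, at percentiles 24.2 and 9.15. For lysine codons taken by themselves the order was the same, with an AAA share of 63.6% in *Elp5*, 60% in *Dph3*, 50% in *Elp4*, 30.8% in *Elp6* and 22.2% in *Kti12*, against a median of 36.8%. The printed stretches hold 5 such codons in 10 in *Elp5*, 4 in *Elp4*, 3 in *Dph3* and 2 each in *Elp6* and *Kti12*. They were picked for these codons from the same CDS, so these counts add no separate evidence.

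**Figure D1:**
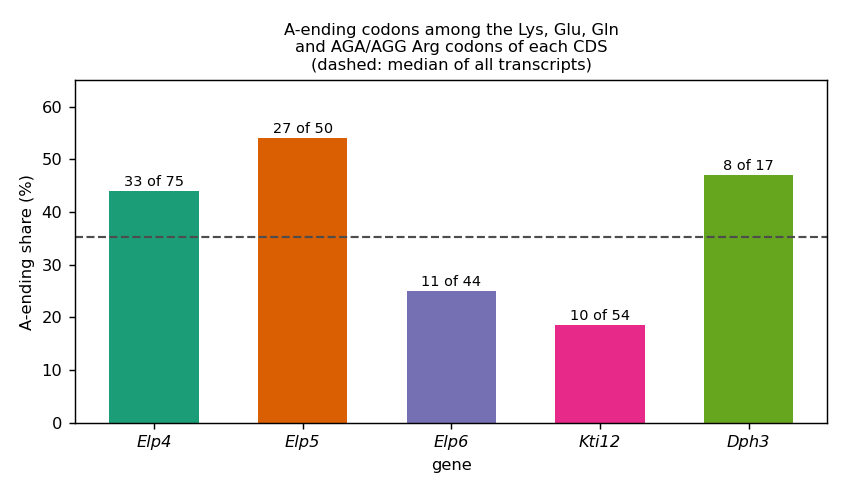
A-ending share (percent, y axis) among the Lys, Glu and Gln codons and the AGA and AGG codons in the CDS of each gene, with the number of A-ending codons over the bars and the median of all transcripts as a dashed line. *Elp5*, *Dph3* and *Elp4* stand above the median of 35.3%, *Elp6* and *Kti12* below it.

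The cell types were checked against their markers. The 6 oligodendrocyte markers used (*Cnp*, *Mag*, *Mog*, *Myrf*, *Cldn11* and *Ugt8a*) were each called higher in OLs, with a summed RNA level of 33.6 to 35.5 FPKM in OPCs and 1835 to 2177 FPKM in OLs. The 3 listed OPC markers summed to 272 to 274 FPKM in OPCs and to 529 to 619 FPKM in OLs, so they did not mark the OPC cultures by their summed level. Of these, *Gpr17* (mean 6.64 FPKM in OPCs and 246 in OLs) and *Pdgfra* (42.4 and 103) were called higher in OLs, and *Ptprz1* (224 and 225) was not called. The 3 listed astrocyte markers summed to between 11 and 14.4 FPKM in OPCs and between 39.8 and 67.2 FPKM in OLs, and the 4 neuron markers to between 15.5 and 21.6 FPKM and between 44.2 and 47.6 FPKM, with none of either list at 0 in both cultures of a cell type. *Gfap* and *Slc1a2* were called higher in OLs among the astrocyte markers, and *Tubb3* (15.4 and 41.4 FPKM) among the neuron markers, of which *Rbfox3*, *Snap25* and *Syt1* were not called. *Top2a* and *Ccnb1*, genes of dividing cells, summed to 119.8 to 174.7 FPKM in OPCs and 31.6 to 35.9 FPKM in OLs. The part of these shifts in the differences below was not tested, and in such bulk samples fewer cells of a type and less RNA per cell cannot be told apart. Depth, estimated from the smallest steps between low values, was 77.9 to 242 Mb aligned for RNA-seq and 93.0 to 249 Mb for footprints, lowest in OL culture 2 in both kinds.

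Levels are given in FPKM (fragments per kilobase, scaled by the mapped reads of each library), over the whole transcript for RNA-seq and over the CDS for footprints, so that genes can be set side by side within a kind of library. In OPCs, *Elp5* had the highest RNA level of the 5 (41.1 ± 4.06 FPKM, SD, n = 2), followed by *Kti12* (23.4 ± 0.954) and *Elp6* (22.6 ± 0.321), whose cultures overlapped, then *Dph3* (19.5 ± 1.5) and *Elp4* (12.4 ± 4.11). In OLs, *Elp5* again came first (32.1 ± 2.68 FPKM), and the other four followed between 11.4 and 15.2 FPKM, each overlapping its neighbour in the order. Footprints ordered the genes differently. In OPCs, *Dph3* (63.1 ± 17.2 FPKM) and *Elp6* (58.4) led and overlapped, with *Elp5* (46.1 ± 3.21), *Elp4* (39.4 ± 11.3) and *Kti12* (32.1 ± 6.47) after them, each overlapping the next. In OLs, *Elp4* led (54.5 ± 3.08), then *Elp6* (45.1 ± 6.98), *Elp5* (30.1 ± 6.82) and *Kti12* (11.3 ± 2.72), with no overlap between neighbours. *Elp4* thus had the lowest RNA level of the 5 genes in OPCs, and the highest footprint level in OLs of the 4 genes with footprints in every library.

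**Figure D2:**
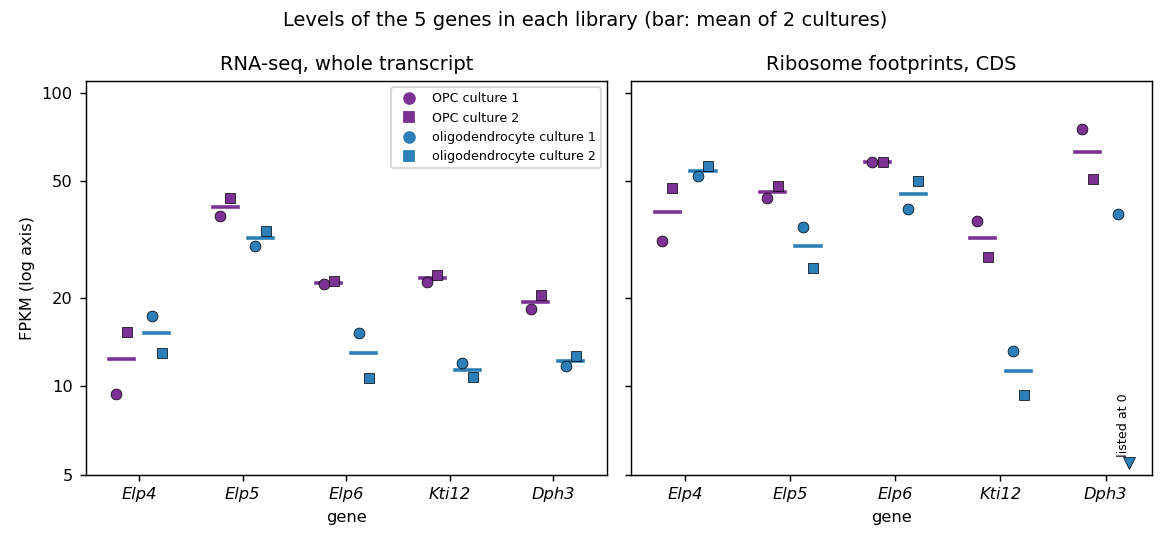
FPKM of the 5 genes in each library (log axis), RNA-seq at left and ribosome footprints at right, with circles for culture 1, squares for culture 2 and bars for the mean of the 2 cultures. *Kti12* is lower in both OL cultures in both panels, *Elp4* is higher in both OL cultures for footprints, and the triangle marks *Dph3*, listed at 0 in the footprints of OL culture 2.

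The comparison of OLs with OPCs addressed whether genes of the tRNA modification pathways are expressed at other levels after differentiation. At the RNA level, *Kti12* and *Elp6* fell, and no member rose. These 2 of 5 genes called in limma (adjusted p under 0.05) stand against 33.2% of all 8346 transcripts tested, or 20.2% for lower calls and 13.0% for higher calls. Without regard to the test, both OL cultures lay below both OPC cultures for 4 of the 5 genes, which was the case for 44.2% of all transcripts. Both lay above for 0 of the 5, and for 27.6% of all transcripts. The median change of the 5 was -0.67 on the log2 scale, beside -0.23 over all transcripts tested.

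Of the accessory sub-complex, *Elp6* was called for RNA and *Elp4* and *Elp5* were not. Differences between the changes of these genes were not tested. *Elp4* RNA was 9.46 and 15.3 FPKM in OPC cultures 1 and 2, and 17.4 and 13.0 FPKM in OL cultures 1 and 2. The cultures overlapped, the change was 0.87 in pair 1 and -0.23 in pair 2 on the log2 scale, and the fitted change of 0.32 (SE 0.31, limma adjusted p = 0.459) had a 95% interval from -0.45 to 1.09. Without OPC culture 1 the sign turned (-0.02).

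*Elp5* RNA was at 38.2 FPKM in OPC culture 1 and 44.0 FPKM in OPC culture 2, and at 30.2 and 34.0 FPKM in OL cultures 1 and 2. Both OL cultures were below both OPC cultures, by -0.34 and -0.37 in the pairs, and the fitted change of -0.36 on the log2 scale (SE 0.18, limma adjusted p = 0.170) did not pass the threshold.

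*Elp6* RNA was at 22.4 and 22.8 FPKM in OPC cultures 1 and 2, against 15.3 FPKM in OL culture 1 and 10.7 FPKM in OL culture 2. The OPC cultures were nearly alike and the OL cultures were both lower. The fitted change was -0.82 on the log2 scale (SE 0.24, 95% interval -1.41 to -0.23, limma adjusted p = 0.0471), a level 1.76-fold higher in OPCs. This call lies at the edge of the threshold: the limma adjusted p was 0.0699 with median-ratio scaling, 0.0521 with a pseudocount of 0.01, 0.0629 with no minimum and 0.0902 without the variance trend, and it was 0.202, 0.229 and 0.131 without OPC culture 1, OPC culture 2 and OL culture 2.

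Of the partner genes, *Kti12* was called lower in OLs and *Dph3* was not. The fitted RNA change of *Kti12* was the most negative of the 5. *Kti12* RNA was at 22.7 FPKM in OPC culture 1, 24.0 in OPC culture 2, 12.0 in OL culture 1 and 10.7 in OL culture 2. The groups did not overlap, and the fall was similar in the pairs, -0.91 and -1.15 on the log2 scale. The fitted change was -1.03 (SE 0.20, 95% interval -1.52 to -0.54, limma adjusted p = 0.0133), that is 2.05-fold higher in OPCs. The limma adjusted p was 0.0956, 0.122 and 0.0552 without OPC culture 1, OPC culture 2 and OL culture 2, with changes of -1.07, -0.99 and -0.95.

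*Dph3* RNA was at 18.4 and 20.5 FPKM in OPC cultures 1 and 2, against 11.7 and 12.7 FPKM in OL cultures 1 and 2. Both OL cultures were lower, with changes of -0.65 and -0.68 in the pairs. The fitted change of -0.67 on the log2 scale (SE 0.20, 95% interval -1.17 to -0.16) missed the threshold (limma adjusted p = 0.0519), and it passed (0.0448) when the minimum for testing was raised to a mean of 5 FPKM.

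Relative to the median of all transcripts, the RNA changes were -0.80 for *Kti12*, -0.59 for *Elp6*, -0.43 for *Dph3*, -0.12 for *Elp5* and 0.55 for *Elp4* on the log2 scale. Scaling the libraries by median ratios moved the RNA median of all transcripts from -0.23 to -0.05 and the share of higher among all called transcripts from 39.1% to 51.5%. No member changed direction under it: *Kti12* RNA then fell by 0.85 (limma adjusted p = 0.0204), and the changes of *Elp6*, *Dph3*, *Elp5* and *Elp4* were -0.64, -0.48, -0.17 and 0.50.

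**Figure D3:**
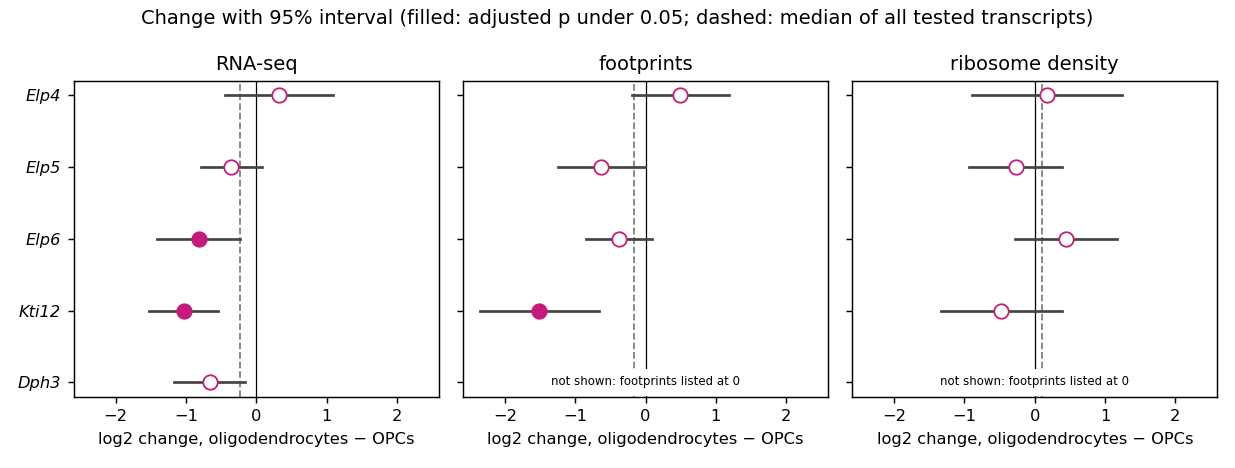
Log2 change from OPCs to OLs (x axis) with its 95% interval for RNA-seq, footprints and ribosome density, filled where the adjusted p is under 0.05, with the median of all tested transcripts as a dashed line. *Kti12* and *Elp6* are filled for RNA-seq and *Kti12* for footprints, no gene is filled for ribosome density, and *Dph3* is shown for RNA-seq only.

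At the footprint level, *Kti12* again fell and was the only member called, 1 of 5 genes beside 23.6% of the 8342 transcripts tested, or 10.8% in the lower direction (12.8% in the higher one, with no member). Both OL cultures lay below both OPC cultures for 4 of the 5 genes, *Dph3* with its 0 included, beside 37.9% of all transcripts, and above them for *Elp4*, beside 31.8%. Without *Dph3*, the median change of 4 genes was -0.50 on the log2 scale, beside -0.16 over all transcripts tested.

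*Kti12* had footprint levels of 36.7 and 27.5 FPKM in OPC cultures 1 and 2, against 13.2 and 9.34 FPKM in OL cultures 1 and 2. The groups were well apart, with falls of -1.47 and -1.55 in the pairs. The fitted change was -1.51 on the log2 scale (SE 0.31, 95% interval -2.36 to -0.66, limma adjusted p = 0.0385), or 2.85-fold higher in OPCs. The limma adjusted p was 0.0712 without the variance trend, and 0.261, 0.196 and 0.106 without OPC culture 1, OPC culture 2 and OL culture 2, although the change stayed between -1.76 and -1.26 under every setting tried. The *Kti12* footprints of OL culture 2 rest on an estimated 30.6 reads of 30 bases, and those of OPC culture 1 on 322.

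The footprint level of *Elp4* was 31.4 FPKM in OPC culture 1, 47.4 in OPC culture 2, 52.3 in OL culture 1 and 56.6 in OL culture 2. Both OL cultures were above both OPC cultures, but the spread of the OPC cultures was wide, and the fitted change of 0.50 on the log2 scale (SE 0.25, 95% interval -0.19 to 1.18, limma adjusted p = 0.232) did not pass the threshold. Without OPC culture 1 the change was 0.20, and without OPC culture 2 it was 0.79.

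For *Elp5*, OPC cultures 1 and 2 had 43.8 and 48.4 FPKM of footprints, while OL cultures 1 and 2 had 35.0 and 25.3 FPKM. Both OL cultures were lower, and the fitted change was -0.63 on the log2 scale (SE 0.23, 95% interval -1.25 to -0.01, limma adjusted p = 0.127). It passed the threshold in 1 of 12 settings, without OL culture 1 (-0.86, limma adjusted p = 0.0438), where the OPC cultures supply the spread, and without OL culture 2 it was -0.40 (limma adjusted p = 0.184).

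*Elp6* had a footprint level of 58.4 FPKM in both OPC cultures, against 40.2 FPKM in OL culture 1 and 50.1 FPKM in OL culture 2. The OL cultures were again lower, with a fitted change of -0.38 on the log2 scale (SE 0.17, 95% interval -0.85 to 0.09, limma adjusted p = 0.193), so that the call made for *Elp6* RNA was not made for its footprints. Without OL culture 1 the change was -0.22.

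The footprint level of *Dph3* was 75.3 FPKM in OPC culture 1, 51 in OPC culture 2 and 38.6 in OL culture 1, and it was listed at 0 in OL culture 2. That library listed 31.1% of all transcripts at 0, the highest share of the 8 libraries. At its estimated depth, 3 reads of 30 bases on the *Dph3* CDS would correspond to 3.89 FPKM. Of 2966 transcripts at or above the *Dph3* level in the footprints of OL culture 1, 35 (1.18%) were listed at 0 in OL culture 2, and 31 of these were among the 579 whose CDS was at most double the length of *Dph3*. In the other direction the count was 0 of 2742. *Ptma* and *Hspe1* were listed at 0 in the same library. The cause of the 0 of *Dph3* was not tested, and no fold change is given for *Dph3* footprints from both cultures. Without OL culture 2, the change was -0.68 on the log2 scale (limma adjusted p = 0.266), with OL culture 1 assumed to vary like the OPC cultures.

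*Dph3* and *Kti12* overlap genes on the opposite strand. The first 108 of the 249 bases of the *Dph3* CDS (43.4%) lie in an exon of *Oxnad1* on the opposite strand, and the command lines of the authors' mapping and quantification hold no strand option, so reads from the genes cannot be told apart there. The CDS, at 32083181 to 32085517 of chromosome 14 on the minus strand, is printed with these bases in capitals to show how much of this short CDS is shared.
Dph3: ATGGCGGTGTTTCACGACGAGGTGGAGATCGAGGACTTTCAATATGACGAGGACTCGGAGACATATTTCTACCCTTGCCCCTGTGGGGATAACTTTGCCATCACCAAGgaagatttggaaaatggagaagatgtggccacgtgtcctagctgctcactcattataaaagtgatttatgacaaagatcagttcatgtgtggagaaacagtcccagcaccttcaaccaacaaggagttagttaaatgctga
*Oxnad1* RNA fell too, from 21.9 and 21.1 FPKM in the OPC cultures to 10.8 and 6.15 FPKM in the OL cultures (log2 change -1.39, limma adjusted p = 0.0212). Its footprint level was 38.2 and 36.2 FPKM in the OPC cultures and 11.8 FPKM in OL culture 1, and it was listed at 0 in OL culture 2, as for *Dph3*. In addition, 26 of the 220 words of 30 bases searched in the *Dph3* CDS were found elsewhere in the genome, and 0 for each of the other four genes. For *Kti12*, 729 bases of its CDS (69.0%) lie in an exon of A730015C16Rik on the opposite strand, a gene not analysed here, so its values carry the same limit. *Elp5* shared 46 bases of its transcript, and none of its CDS, with *Ctdnep1*, whose RNA did not pass the threshold (log2 change -0.26, limma adjusted p = 0.430).

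Ribosome density (RD), footprint FPKM divided by RNA-seq FPKM of the same culture, separated the genes within each culture. RD sets the CDS against the whole transcript. The CDS is 41.6% of the annotated transcript in *Elp4*, 61.4% in *Elp6*, 62.1% in *Elp5*, 64.8% in *Kti12* and 23.6% in *Dph3*. The part of this in the RD levels was not tested. *Elp4* RD was 3.32 and 3.10 in OPCs and 3.01 and 4.36 in OLs. *Elp6* RD was 2.61 and 2.55 in OPCs and 2.63 and 4.68 in OLs. Both stood above the median of all transcripts in their culture, which ranged from 1.72 to 2.02, and both were highest in OL culture 2.

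*Elp5* RD was 1.15 and 1.10 in OPCs and 1.16 and 0.745 in OLs. *Kti12* RD was 1.62 and 1.15 in OPCs and 1.10 and 0.870 in OLs. Both lay below the median in all 4 cultures, at percentiles between 15.4 and 29.0 for *Elp5* and between 18.7 and 46.6 for *Kti12*, against 74.0 to 86.4 for *Elp4* and 66.2 to 88.3 for *Elp6*. *Dph3* RD was 4.10 and 2.48 in OPCs and 3.30 in OL culture 1, above the median in each of the 3 cultures where its footprints were not listed at 0. In OPCs, the footprint levels of *Elp4* and *Elp5* thus overlapped although their RNA levels did not.

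**Figure D4:**
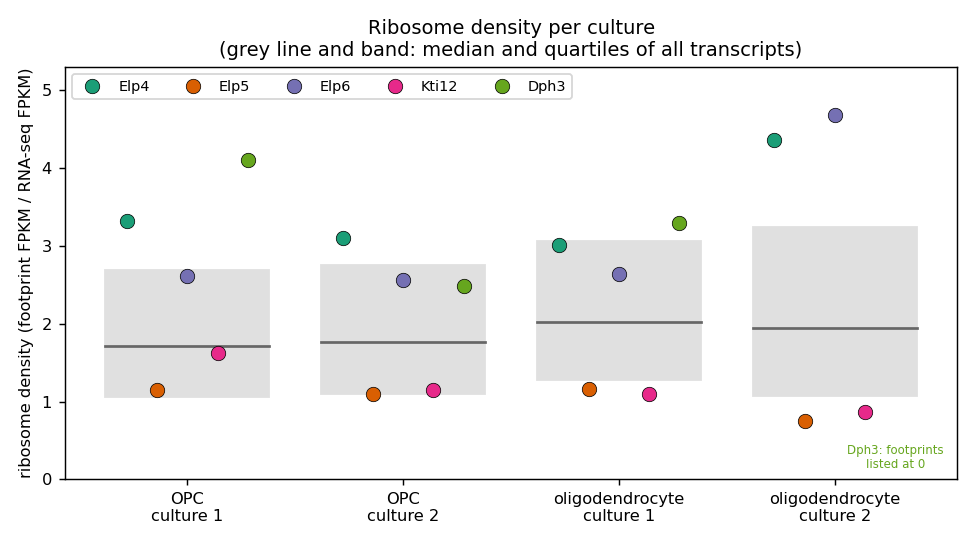
Ribosome density (footprint FPKM over RNA-seq FPKM, y axis) of each gene in the 4 cultures, with the median and quartiles of all transcripts as a grey line and band. *Elp4* and *Elp6* are above and *Elp5* and *Kti12* below the median in every culture, and *Dph3* is not drawn for OL culture 2.

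A change in RD between the cell types was not detected for any member. In limma, 0 of 5 genes were called, beside 0.0124% of the 8056 transcripts tested (1 call, or 0 with the cultures paired as a replicate block, and 387 transcripts at an unadjusted p under 0.05, none of them a member). The fitted change was 0.18 for *Elp4* (95% interval -0.89 to 1.25, adjusted p = 0.941), -0.27 for *Elp5* (-0.94 to 0.39), 0.44 for *Elp6* (-0.29 to 1.16) and -0.48 for *Kti12* (-1.34 to 0.38), with a limma adjusted p of 0.875 for each of *Elp5*, *Elp6* and *Kti12*. This fit treats the footprint and RNA-seq libraries of a culture as independent. With RD taken per culture, the SE was 0.27 for *Elp4*, 0.27 for *Elp5*, 0.34 for *Elp6* and 0.31 for *Kti12*. In the fit used here it was 0.44, 0.28, 0.30 and 0.36. The intervals leave room for a change of 1 on the log2 scale in at least one direction for *Elp4*, *Elp6* and *Kti12*. For *Elp5* the interval reaches -0.94, so none of these genes is shown to keep its RD. Without OL culture 2 the sign turned for *Elp4* (-0.09) and *Elp5* (0.04), and the changes of *Elp6* and *Kti12* were 0.03 and -0.31. Without OL culture 1 they were 0.44, -0.59, 0.85 and -0.64 for *Elp4*, *Elp5*, *Elp6* and *Kti12*. For *Kti12* the change was -0.23 without OPC culture 1 and -0.72 without OPC culture 2.

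The levels of *Elp4*, *Elp5* and *Elp6* relative to one another can be read as ratios within a library, which do not depend on how libraries are scaled. Protein was not measured, so the ratios do not give the balance of subunits in the complex. These ratios were chosen after the values had been seen, and with 2 cultures against 2 the smallest two-sided exact permutation p is 0.333, so they are given without a test. For footprints, *Elp4* over *Elp5* was 0.716 and 0.979 in OPCs and 1.5 and 2.24 in OLs. *Elp4* over *Elp6* was 0.538 and 0.812 in OPCs and 1.3 and 1.13 in OLs. In both ratios *Elp4* had the lower footprint level in each OPC culture and the higher one in each OL culture.

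For RNA, *Elp4* over *Elp5* was 0.248 and 0.348 in OPCs and 0.577 and 0.383 in OLs, so *Elp5* kept the higher RNA level in all 4 cultures. *Elp4* over *Elp6* was 0.423 and 0.669 in OPCs and 1.14 and 1.21 in OLs for RNA, again with no overlap. *Elp6* over *Elp5* overlapped between the cell types for footprints (1.33 and 1.21 in OPCs, 1.15 and 1.98 in OLs), while for RNA it was 0.586 and 0.520 in OPCs and 0.506 and 0.315 in OLs.

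**Figure D5:**
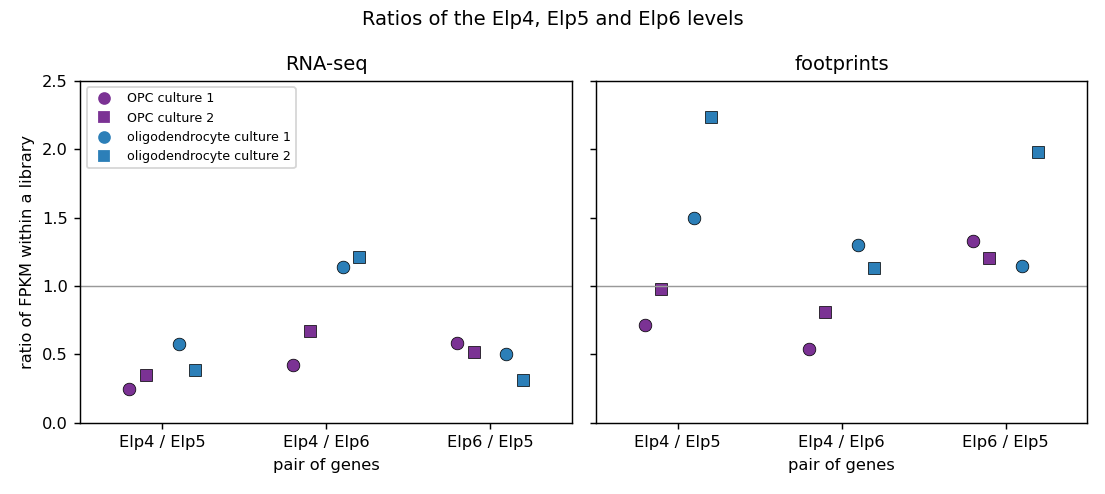
Ratios of FPKM between *Elp4*, *Elp5* and *Elp6* within each library (y axis), RNA-seq at left and footprints at right, with circles for culture 1, squares for culture 2 and a line at equal levels. *Elp4* over *Elp6* and, for footprints, *Elp4* over *Elp5* pass the line of equal levels between the OPC and the OL cultures.

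The 8 libraries hold RNA-seq and footprints of the same cultures and are therefore not independent points. Across them, the log2 levels of *Elp5* and *Kti12* had a Pearson r of 0.897, and those of *Elp5* and *Dph3* of 0.816. Those of *Elp4* and *Elp6* had 0.808, and those of *Elp4* and *Elp5* -0.12. RNA-seq and footprint levels enter r together, so r also reflects the RD level and does not measure a shared change between the cell types. The fitted RNA changes of *Elp4* and *Elp6* were 0.32 and -0.82 on the log2 scale. Of 6014 transcripts averaging 5 FPKM or more in both kinds of library, the 3 most like each member over these 8 libraries were *Nxt2* (0.991), *Apmap* (0.991) and *Mpp1* (0.988) for *Elp4*, and *Apln* (0.988), *Cenpa* (0.981) and *Mapkapk2* (0.979) for *Elp5*. For *Elp6* they were *Smc3* (0.997), *Ctu1* (0.996) and *Mrps10* (0.995). These genes are the highest of 6014 in the same data, so a place among them is no evidence of a shared pathway. For *Kti12* they were *Fam181a* (0.993), *Bcl7c* (0.990) and *Tdrd7* (0.983). For *Dph3*, *Atf5*, *Fam199x* and *Mmab* (0.997 each) were all listed at 0 in the footprints of OL culture 2, like *Dph3* itself. *Apln* was listed at 0 in that library too. Pearson r does not weigh the size of a change. *Apln* RNA was at 18.2 and 49.1 FPKM in OPCs and at 1.14 and 1.37 FPKM in OLs, a larger fall than that of *Elp5*.

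Of 8 genes for the later steps of the same pathway, 6 were listed. At the RNA level 1 rose, 1 fell and 4 were not called, beside 13.0% higher and 20.2% lower calls over all transcripts. *Urm1*, the ubiquitin-like protein that carries the sulfur, rose from 22.2 and 19.4 FPKM in OPCs to 130.8 and 149.7 FPKM in OLs (log2 change 2.75, limma adjusted p = 0.000547), and its footprints rose by 2.48 (limma adjusted p = 0.00316), the only footprint call of the list. *Ctu1* and *Ctu2* encode the enzyme that adds sulfur to the wobble uridine after Elongator has acted. *Ctu2* fell from 13.5 and 16.3 FPKM to 8.45 and 5.96 FPKM (log2 change -1.05, limma adjusted p = 0.0341). The median RNA change of the 6 was -0.50 and their median footprint change -0.46, beside -0.23 and -0.16 over all transcripts. For footprints, 12.8% of all transcripts were called higher and 10.8% lower.

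*Dph3* also serves the diphthamide pathway, of which 6 of 7 genes were listed. At the RNA level, 1 of the 6 fell, *Dph1*, a subunit of the enzyme for the opening step that *Dph3* supplies with electrons, beside 20.2% lower calls over all transcripts. *Dph1* RNA was at 9.20 and 8.25 FPKM in the OPC cultures, against 1.78 and 0.828 FPKM in the OL cultures (log2 change -2.74, limma adjusted p = 0.00923). None of the 6 was called for footprints in limma, beside 12.8% higher and 10.8% lower calls over all transcripts. The medians were -0.51 for RNA and -0.37 for footprints, beside -0.23 and -0.16 over all transcripts.

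Of the 6 mammalian homologs of the kinase and phosphatase that act on Elongator and *Kti12* in yeast, 1 rose in both kinds of library, *Ppp6r2*, a regulatory subunit of protein phosphatase 6 (log2 change 0.89 for RNA, limma adjusted p = 0.0230, and 1.32 for footprints, limma adjusted p = 0.0253). The other 5 were not called, and the shares of higher calls over all transcripts were 13.0% for RNA and 12.8% for footprints. The medians of the 6 were -0.13 for RNA and 0.35 for footprints, beside -0.23 and -0.16 over all transcripts. Of the 3 enzymes that modify the wobble uridine of mitochondrial tRNAs, *Gtpbp3* (-0.86, limma adjusted p = 0.0295) and *Mto1* (-1.28, limma adjusted p = 0.0195), which act together, fell at the RNA level, beside 20.2% lower calls over all transcripts. None was called for footprints, beside 12.8% higher and 10.8% lower calls over all transcripts. The footprint changes were -1.78 for *Gtpbp3* (limma adjusted p = 0.0572) and -1.67 for *Mto1* (limma adjusted p = 0.138).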

How the data were processed

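Ribosome footprints and total RNA of 2 OPC and 2 OL cultures were analysed (8 libraries, each with 1 column of values, all used), grouped by the labelled cell type and kind of library. The authors deposited FPKM values, made by clipping adapters (reads of at least 18 nucleotides kept), mapping to GRCm38 with HISAT2 2.1.0 and tabulating with StringTie 1.3.5 and ballgown for canonical coding transcripts of Gencode vM9, using whole transcripts for RNA-seq and CDS for footprints. Versions are from the submitters' processing notes. No filter on listed transcripts is given in the sources used here, and counts are not part of the values.

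FPKM were used without further scaling, as log2(FPKM + 0.1), which understates changes of low genes. Differences were tested with limma 3.58.1 in R 4.3.3 (eBayes with trend, two-sided, Benjamini-Hochberg over all transcripts tested, threshold 0.05). Each kind of library had its own fit over 4 libraries, with a minimum mean of 1 FPKM. The RD change was the cell type by library kind interaction in a fit of all 8. The tests were tested on simulated data. Intervals are 95%. Depth and reads were estimated from the steps between low values, with a possible factor of 2, and cover counting error only.

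Replicate numbers pair OL with OPC cultures, since OLs were differentiated from the like-numbered OPC replicates. The deviations of same-numbered libraries had a correlation of 0.108 for RNA-seq, 0.0860 for footprints and 0.0604 for RD. With 2 cultures, p-values rest on the spread between these cultures, moderated by eBayes toward a trend over all transcripts tested. They do not cover the spread of other cultures.

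Coordinates, exons and sequences are from Gencode vM21 on GRCm38, where all 10987 transcript identifiers were found. The members and the gene lists were chosen with earlier results of these data known. All 5 members are named, with the 3 transcripts most correlated with each and list genes that were called. An oligodendrocyte marker was left out and is not reported here. Alternatives were the pseudocount, the minimum, the scaling, the variance trend, the replicate block and leaving out each culture.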

Additional observations from a re-analysis of the deposited data

How the results depend on the processing

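With a pseudocount of 0.01, no minimum, median-ratio scaling or no variance trend, 1 member rather than 2 was called for RNA-seq, *Kti12*, and without each culture in turn 0 to 2. Over all transcripts, leaving out a culture gave 364 to 2599 RNA-seq calls instead of 2772. For footprints, no member was called without the variance trend (1036 calls over all transcripts instead of 1969), and leaving out a culture gave 0 to 3 members and 0 to 3442 transcripts. For RD, leaving out a culture gave 0 to 1 members (*Dph3*, without OL culture 1, where its value rests on the 0) and 0 to 883 transcripts. The single RD call over all transcripts became 3 with a pseudocount of 0.01, 3 with median-ratio scaling, 14 without the variance trend, 0 with RD per culture and 0 with the replicate block. In the paired fit with the replicate block, *Kti12* and *Elp6* were called for RNA-seq and *Kti12* for footprints, as without it, so it changed no call of a member.

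Directions turned for *Elp4* RNA without OPC culture 1 (-0.023, range over left-out cultures -0.023 to 0.66), and without OL culture 2 for the RD of *Elp4* (-0.090 to 0.44), *Elp5* (-0.59 to 0.044) and *Dph3* (-8.67 to 0.045). The cause was not tested. Taken by culture, 2 and 3 members changed place in the order of OL RNA levels, and 2 and 2 in that of OPC footprints. Divided by the median of its culture, mean RD in OPCs and OLs was 1.84 and 1.86 for *Elp4*, 0.645 and 0.478 for *Elp5*, 1.48 and 1.85 for *Elp6*, and 0.795 and 0.495 for *Kti12*, and 1.89 for *Dph3* in OPCs. Over 12 settings the RNA-seq call held in 9 for *Kti12* and 5 for *Elp6*, and the footprint call of *Kti12* in 8. With a culture left out, the lone culture of that cell type is assumed to vary like the other group. The cause of the 0 of *Dph3* footprints in OL culture 2 was not tested.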
